A study of Oryza sativa Japonica Group with 8 samples.

Results

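The aquaporins of rice were examined in the pistil, the female organ of the flower. The 33 loci were the rows of the deposited count table whose identifiers stand on a fixed list of rice PIP, TIP, NIP and SIP aquaporins, and all 33 were found among its 38726 features. The pistils came from untreated wild-type plants of cultivar Nipponbare (Oryza sativa ssp. japonica) at heading. There were 3 groups of libraries: RNA of sorted nuclei from pistils (n = 2), and whole-cell RNA from either the upper (n = 3) or the lower part (n = 3). Plants were kept in climate chambers, and the labels state neither where the pistil was divided nor whether each replicate had its own plants, so p-values cover only how far these samples spread, possibly for technical reasons. Nuclei and whole-cell libraries differed in their kits, and a difference of compartment and one of kit cannot be told apart here.

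Aquaporins are channel proteins that let water, and in some groups small uncharged solutes, cross membranes along a gradient. PIPs (plasma membrane intrinsic proteins) lie mainly in the plasma membrane and are divided into PIP1 and PIP2. In maize, PIP1 proteins reach the plasma membrane with the help of PIP2 partners. TIPs (tonoplast intrinsic proteins) lie mainly in the membrane of the vacuole. NIPs, named after nodulin 26 of soybean, include channels for silicon and boron, and SIPs are a small group found in the endoplasmic reticulum of Arabidopsis. The list holds 3 PIP1, 8 PIP2, 10 TIP, 10 NIP and 2 SIP loci. Subfamilies were assigned from knowledge of the published nomenclature of rice aquaporins and were not checked against an annotation, so each value by subfamily rests on that assignment. The deposited table gives identifiers alone and the reference gene table used here matched 0 of the 33, so single loci are given by identifier, without names or single roles. The chromosome is the pair of digits after "Os" in each identifier.

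Total counts were 10857036 and 9268151 in nuclei replicates 1 and 2 and between 24796307 and 35518142 in the 6 whole-cell libraries. In a single library, 3 counts corresponded to at most 0.377 CPM (counts divided by the library's total and scaled to a common one). All 5 loci of a carpel and ovule marker list had counts in every library, with sums from 1146 to 1782 CPM in nuclei, 1599 to 2402 CPM in the upper part and 1449 to 1872 CPM in the lower part. The 3 tapetum markers summed to at most 5.55 CPM in any library. The 3 stamen and lodicule markers were well above 0 in every group, with 248 and 496 CPM in nuclei, 1145, 783 and 863 CPM in the upper and 490, 326 and 993 CPM in the lower libraries. The 5 green tissue markers summed to between 79.1 and 182 CPM in nuclei, 197 and 473 CPM in the upper part and 225 and 995 CPM in the lower part. Lower replicate 3 was nearer to the upper libraries, with a mean Spearman correlation over genes of 0.919, than to the other lower libraries, with 0.878. In bulk samples, fewer cells of a type and less RNA per cell cannot be told apart.

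Most of the family had reads in the pistil. A mean of at least 1 CPM was reached by 24 of the 33 loci in nuclei, by 23 in the upper part and by 23 in the lower part. Both SIP loci and all 3 PIP1 loci were among them in each group, as were 5 of the 8 PIP2 loci. For the TIPs the counts were 7, 8 and 9 of 10 in nuclei, upper and lower libraries, and for the NIPs they were 7, 5 and 4 of 10. Levels are not compared between loci, because CPM values are not corrected for transcript length. In nuclei, upper and lower libraries the TIP Os06g0336200 averaged 360, 229 and 157 CPM and the TIP Os05g0231700 averaged 199, 146 and 81.5 CPM. The TIPs Os10g0492600 and Os04g0527900 and the NIPs Os05g0205000 and Os08g0152100 had at most 2.89 CPM in any library. The NIP Os06g0228200 had at most 5.20 CPM.

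**Figure D1:**
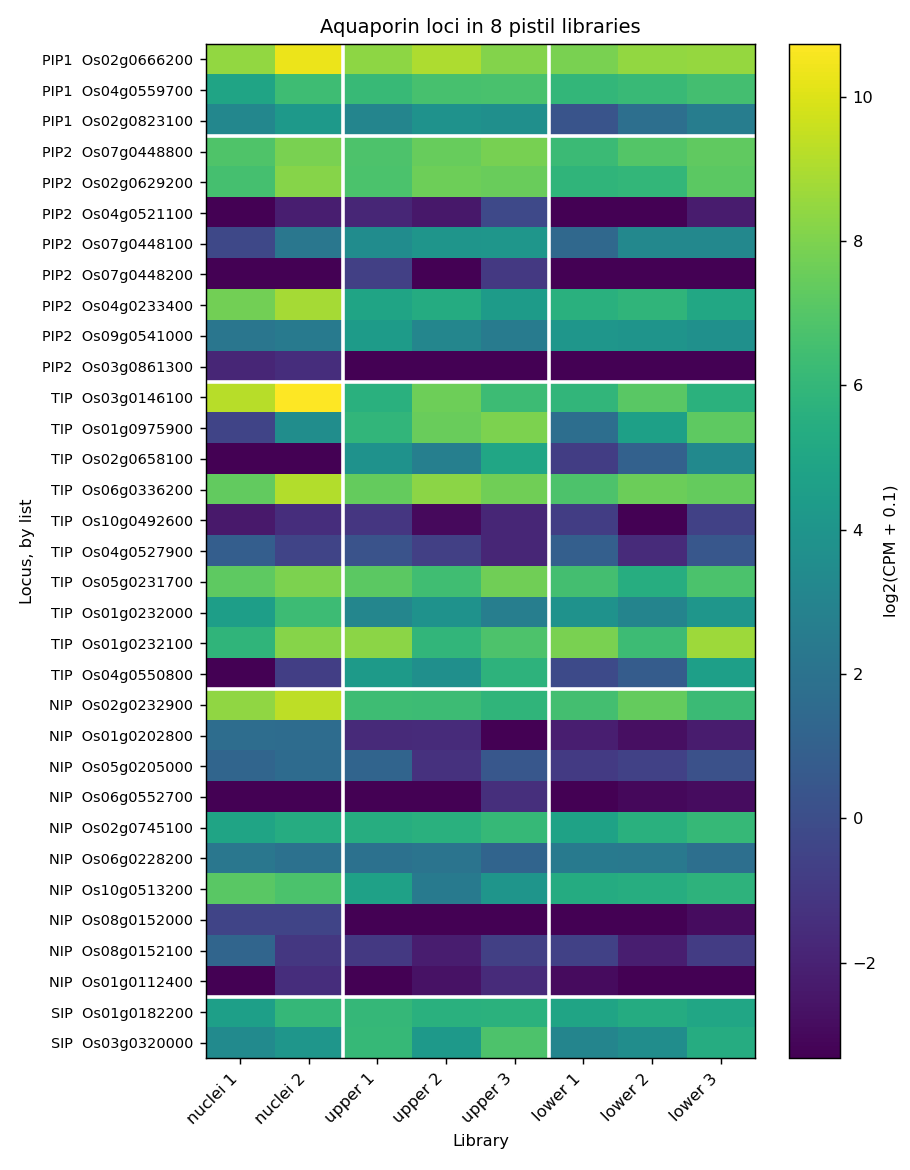
Level of each of the 33 aquaporin loci (rows, by list) in the 8 libraries (columns), as log2(CPM + 0.1) with TMM-scaled library sizes; colour is not corrected for transcript length. Whole lists are seldom dark or bright: each of PIP2, TIP and NIP holds loci above 100 CPM in some library and loci under 1 CPM in every library.

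With 6 loci too low to be tested in either comparison, only their counts are described. Os07g0448200 (PIP2) had 14, 0 and 9 counts in the upper libraries and 0 counts in the lower and nuclei libraries. Os04g0521100 (PIP2) had 0 and 1 counts in nuclei, 5, 3 and 17 in the upper and 0, 0 and 3 in the lower libraries. Both PIP2 loci thus had nearly all their reads in the upper part, in 2 and 3 of its libraries. Os03g0861300 (PIP2) had 2 counts in each nuclei library and 0 in all 6 whole-cell libraries, which allows at most 0.135 CPM in any of them. Os08g0152000 (NIP) had 7 and 5 counts in nuclei, 0 in each upper library and 0, 0 and 1 in the lower libraries. The other two, Os06g0552700 and Os01g0112400 (both NIP), had at most 6 counts in any library.

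Summed over the family, aquaporin reads lay above the whole-cell level in both nuclei libraries. The sum (CPM by total counts) was 2389 and 5300 CPM in nuclei, against 1732, 2078 and 1734 CPM in the upper and 1539, 1683 and 2149 CPM in the lower libraries. The groups did not overlap. The difference of the mean log2 sums was 0.98 (two-sided exact permutation p = 0.0357, which no arrangement of the 28 can undercut; p = 0.0536 after Benjamini-Hochberg adjustment over 6 sums), so it did not pass the adjustment. Its size rested on nuclei replicate 2: without that library the log2 difference was 0.40, and without nuclei replicate 1 it was 1.55. The TIP locus Os03g0146100 alone had 601 and 1698 CPM in nuclei and at most 199 CPM in any whole-cell library (TMM-scaled). On the same scale the family sum was 2361 and 6165 CPM in nuclei. It was 2147 CPM in upper replicate 2, where this locus had 199 CPM. Without this locus, nuclei replicate 1 therefore lies below upper replicate 2, so the lack of overlap rests on it.

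The NIP sum was highest in nuclei and lowest in the upper part. It was 519 and 699 CPM in nuclei, 155, 135 and 119 CPM in the upper part and 209, 296 and 216 CPM in the lower part. The nuclei, upper and lower libraries did not overlap in this sum. The log2 difference of nuclei and whole cells was 1.75, and it was 1.53 without nuclei replicate 2. TIP loci summed to 1010 and 2485 CPM in nuclei and to 765 ± 151 CPM in whole cells (SD, n = 6), and PIP2 loci to 437 and 863 CPM in nuclei and 336 ± 67.5 CPM in whole cells (SD, n = 6). Each of these 3 sums had the same smallest exact permutation p = 0.0357 and adjusted p = 0.0536. Single loci held much of these sums in nuclei, here with loci and sums both TMM-scaled. Os02g0232900 had 331 and 653 CPM of NIP sums of 513 and 813 CPM. Os03g0146100 had 601 and 1698 CPM of TIP sums of 998 and 2890 CPM. Os04g0233400 had 215 and 465 CPM of PIP2 sums of 432 and 1004 CPM. In upper replicate 2 the latter loci had 199 and 39.2 CPM of TIP and PIP2 sums of 872 and 436 CPM. Without Os03g0146100 and Os04g0233400, the TIP and PIP2 sums of nuclei replicate 1 therefore lie below those of upper replicate 2. The NIP sum without Os02g0232900 was not tested. With TMM-scaled library sizes the PIP2 sums overlapped (log2 difference 1.03, exact permutation p = 0.107). Without nuclei replicate 2 the log2 differences were 0.43 for TIP and 0.41 for PIP2 loci, and without nuclei replicate 1 they were 1.72 and 1.39. PIP1 sums overlapped, with 387 and 1183 CPM in nuclei and 445 ± 103 CPM in whole cells (SD, n = 6; exact permutation p = 0.214, adjusted p = 0.25). SIP sums also overlapped, with 35.6 and 70.1 CPM in nuclei and 85.5 ± 37.8 CPM in whole cells (SD, n = 6; exact permutation p = 0.25, adjusted p = 0.25).

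**Figure D2:**
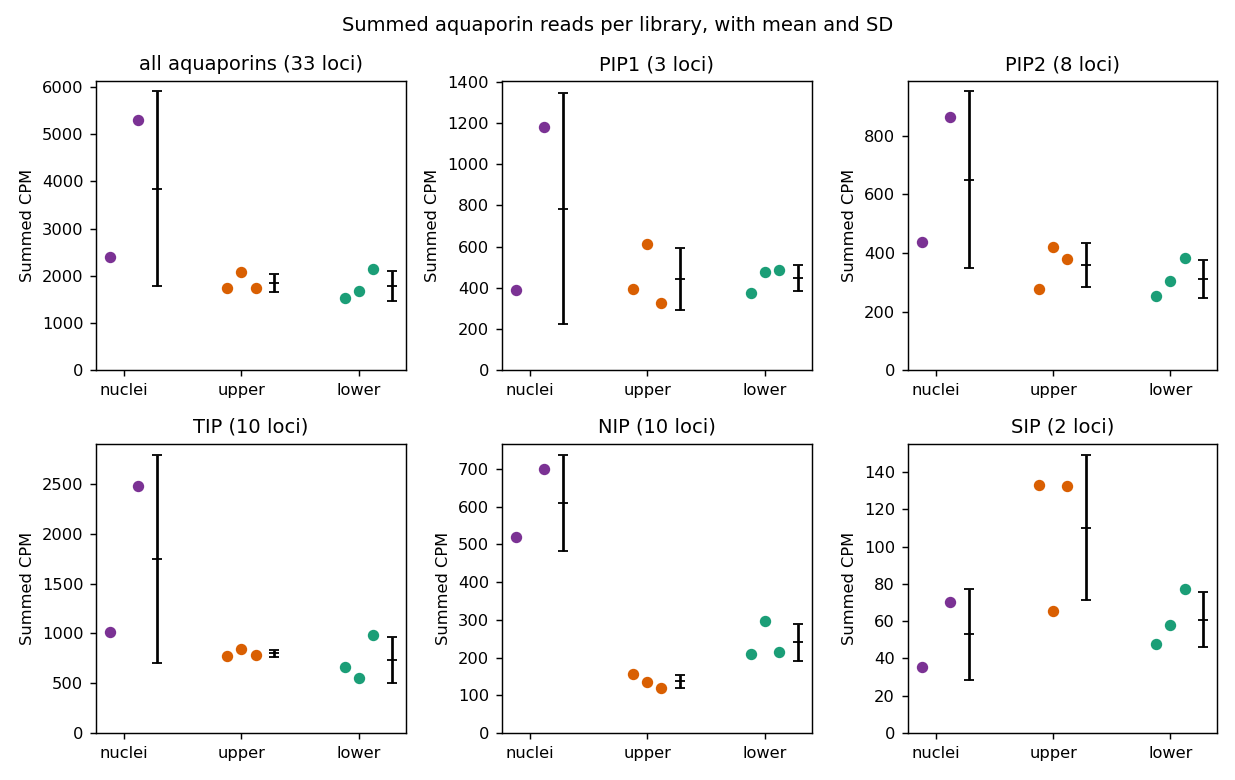
Summed CPM (by total counts, axes from 0) of all aquaporins and of each list in the nuclei, upper and lower libraries; dots are libraries and the bar beside them is the mean with its SD. The sum over all loci reaches 5300 CPM in one nuclei library and 2389 CPM in the other, and the NIP sums of the 3 groups do not overlap.

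Between the parts, the family sum was 1848 ± 199 CPM in the upper part, against 1790 ± 319 CPM in the lower (SD, n = 3 each), a log2 difference of 0.06 (exact permutation, two-sided, p = 0.8). With the TMM-scaled library sizes used for single loci, the log2 differences between the parts were larger for the family (0.36), PIP2 (0.51, against 0.20 by total counts) and TIP sums (0.48, against 0.17), with exact permutation p from 0.2 to 0.3. NIP loci summed to 137 ± 17.9 CPM in the upper part, against 240 ± 48.3 CPM in the lower (SD, n = 3 each). All 3 upper libraries were below all 3 lower libraries, with a log2 difference of -0.80 (exact permutation p = 0.1, the smallest that 3 against 3 allows; adjusted p = 0.6 over 6 sums). With TMM-scaled library sizes it was -0.50 (exact permutation p = 0.1). SIP loci summed to 110 ± 39.0 CPM in the upper part, against 60.8 ± 15.0 CPM in the lower (SD, n = 3 each), with overlapping libraries and a log2 difference of 0.81 (exact permutation p = 0.2).

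The shares of the subfamilies within the aquaporin counts do not depend on the scaling between libraries. By counts not corrected for transcript length, TIP loci held the largest share in each library, from 32.7% to 46.9%. The lists differ in their number of loci, so a share is not a level per locus. NIP loci held 21.7% and 13.2% in nuclei, 8.96%, 6.51% and 6.89% in the upper and 13.6%, 17.6% and 10.0% in the lower libraries. The upper libraries were all below the lower ones, by 6.28 percentage points between the means (exact permutation p = 0.1, the smallest possible; adjusted p = 0.5 over 5 shares). SIP loci held 1.49% and 1.32% in nuclei, 7.67%, 3.14% and 7.65% in the upper and 3.10%, 3.43% and 3.59% in the lower libraries. Both nuclei libraries were below every whole-cell library, by 3.36 percentage points (exact permutation p = 0.0714, adjusted p = 0.238 over 5 shares). Between nuclei and whole cells the NIP shares overlapped, with a difference of 6.87 percentage points (exact permutation p = 0.143, adjusted p = 0.238 over 5 shares). The shares of PIP1, PIP2 and TIP overlapped between the groups in both comparisons.

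**Figure D3:**
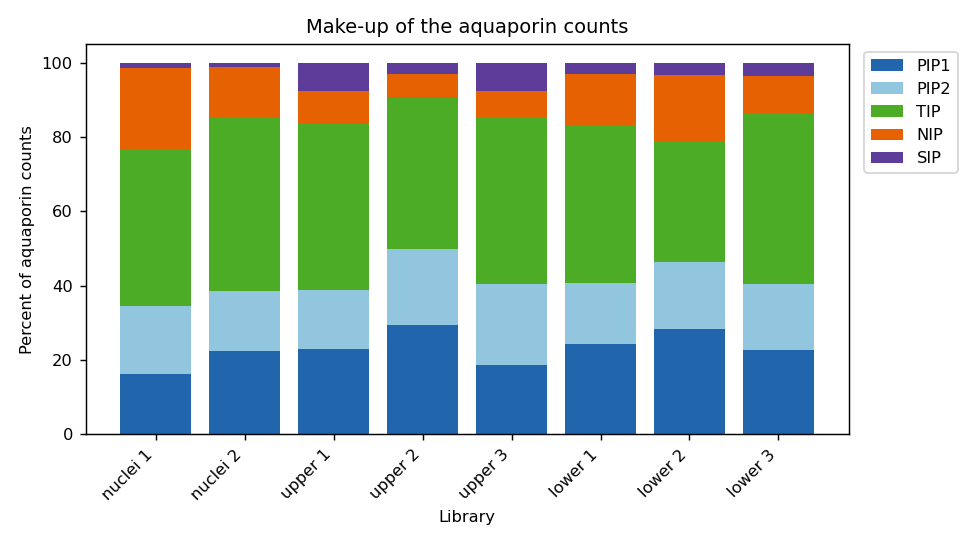
Percent of all aquaporin counts held by PIP1, PIP2, TIP, NIP and SIP loci in each library (stacked bars, adding up to the whole). NIP shares are lowest in the 3 upper libraries and SIP shares are lowest in the 2 nuclei libraries.

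The comparison of the upper with the lower part asked whether aquaporin transcripts differ along the pistil. Of the 25 loci with enough counts, edgeR's quasi-likelihood test called 0 loci as higher in the upper part and 0 as lower. Of all 29848 genes 0.814% were called, 0.811% higher and 0.00335% lower. A call needed a Benjamini-Hochberg adjusted p under 0.05 together with a log2 fold change of 1 or more in size. At an unadjusted p under 0.05 there were 2 higher (8.0%) and 1 lower (4.0%), close to the 7.74% and 6.14% of all genes, and DESeq2 also called 0 in each direction, against 4.09% of all genes higher and 1.38% lower. The median log2 fold change of the 25 loci was 0.42, against -0.02 over all genes tested, and 16 were above 0. With library size as the only scaling these medians were 0.11 and -0.34, and 13 loci were above 0.

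The replicate numbers pair the upper and lower libraries (the correlations stand with the processing). In a fit blocked by replicate number, 1 of the 25 loci was called higher, Os02g0823100, against 5.12% of all genes, and 0 lower, against 3.02%. An unadjusted p under 0.05 was reached in this edgeR fit by 9 higher (36.0%) and 2 lower loci (8.0%), against 18.4% and 15.1% of all genes. In 12 of the 22 loci with a mean of at least 1 CPM in whole cells all 3 upper libraries were above their paired lower library, and in 4 all 3 were below. Over all genes of that level the shares were 29.0% and 30.6%. Among the tested loci, the 12 were 2 PIP1, 3 PIP2, 5 TIP and both SIP loci, and the 4 were 1 PIP2 and 3 NIP loci.

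Os02g0823100 (PIP1) had 8.35, 14.0 and 12.8 CPM in the upper and 1.16, 3.34 and 6.04 CPM in the lower libraries. The parts did not overlap. Its log2 fold change was 1.75 with an SE of 0.60 (edgeR adjusted p = 0.278), and with the block it was 1.99 (edgeR adjusted p = 0.0417). The blocked call was lost without pair 2 (log2 fold change 1.93, edgeR adjusted p = 0.172; from 0.0171 to 0.678 over all alternatives). The other PIP1 loci had smaller fitted changes: Os02g0666200 averaged 373 ± 128 CPM in the upper part, against 315 ± 70.0 CPM in the lower, and Os04g0559700 averaged 91.9 ± 17.7 CPM in the upper part, against 76.8 ± 14.9 CPM in the lower (SD, n = 3 each).

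Among the PIP2 loci, Os07g0448100 had 11.2, 15.8 and 16.4 CPM in the upper and 2.55, 9.22 and 9.15 CPM in the lower libraries, with no overlap. Its log2 fold change was 1.06 with an SE of 0.52 (edgeR adjusted p = 0.403). Os04g0233400 pointed the other way in all 3 pairs, with 29.6, 39.2 and 20.9 CPM in the upper and 47.5, 58.1 and 33.6 CPM in the lower libraries (log2 fold change -0.61, SE 0.34, edgeR adjusted p = 0.446). Neither passed the test with the block.

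The values of a trio of TIP loci varied widely among whole-cell libraries. Os01g0975900 had 60.5, 182 and 249 CPM in the upper and 3.33, 25.6 and 149 CPM in the lower libraries. Os02g0658100 had 14.1, 6.72 and 31.2 CPM in the upper and 0.485, 1.99 and 10.1 CPM in the lower libraries. Os04g0550800 had 20.0, 12.8 and 54.8 CPM in the upper and 0.775, 1.63 and 24.0 CPM in the lower libraries. In each of these loci every upper library was above its paired lower library, while lower replicate 3 was far above the other lower libraries. Of the 22 loci with a mean of at least 1 CPM in whole cells, 5 (22.7%) were there more than 2-fold above both other lower libraries. The share over all genes of that level was 10.5%. The sum of the stamen and lodicule markers and 2 of its 3 loci were also highest in lower replicate 3 among the lower libraries, while the other, Os05g0423400, had 80.0, 73.1 and 79.2 CPM there. Their part in these values was not tested.

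The fitted log2 fold changes of the trio were 1.46 (SE 1.15), 2.05 (SE 1.04) and 1.73 (SE 1.21), with edgeR adjusted p between 0.416 and 0.563. Without lower replicate 3, Os04g0550800 was called higher in the upper part (log2 fold change 4.62, edgeR adjusted p = 0.0370; from 0.00771 to 0.933 over all alternatives) and was the only one of the 26 loci then tested, against 3.01% of all genes called higher, while 0 were called lower, against 0.138%. Os01g0975900 and Os02g0658100 then had log2 fold changes of 3.56 and 3.85 (edgeR adjusted p = 0.0776 and 0.0569, where the alternatives ran from 0.00492 to 0.922 and from 0.0100 to 0.902). With the block, the trio had log2 fold changes of 2.61, 2.57 and 2.86 (edgeR adjusted p = 0.0728, 0.0687 and 0.0572). Leaving out pair 1 from the blocked fit gave 4 loci higher (Os02g0823100, Os02g0658100, Os04g0550800 and the SIP locus Os03g0320000) and 1 lower (the NIP locus Os10g0513200), against 7.56% and 4.18% of all genes. Leaving out pair 3 gave 4 higher (Os02g0823100 and the trio) and 0 lower, against 7.62% and 2.14%, and leaving out pair 2 gave 0 in each direction by edgeR, against 0.325% and 0% of all genes. An unadjusted p under 0.05 was there reached by 6 higher (23.1%) and 3 lower loci (11.5%), against 12.1% and 8.62% of all genes.

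Among the NIPs, Os10g0513200 had 26.1, 5.38 and 15.8 CPM in the upper and 40.4, 43.0 and 54.5 CPM in the lower libraries. The parts did not overlap, and the log2 fold change was -1.53 with an SE of 0.53 (edgeR adjusted p = 0.279; 0.0671 with the block). Of all tested genes 10.6% were, like this locus, lower in every upper than in every lower library, and 9.91% were higher. Among the 25 loci the counts were 1 and 3. Os02g0232900 had 81.9, 80.8 and 57.7 CPM in the upper and 93.5, 168 and 77.4 CPM in the lower libraries, lower in the upper part in all 3 pairs (log2 fold change -0.60, SE 0.38, edgeR adjusted p = 0.494). Os02g0745100 averaged 53.3 ± 12.6 CPM in the upper part, against 47.4 ± 20.4 CPM in the lower (SD, n = 3 each).

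Both SIP loci had higher values in the upper member of every pair. Os01g0182200 had 66.8, 48.4 and 50.6 CPM in the upper and 29.8, 40.0 and 32.3 CPM in the lower libraries, with no overlap (log2 fold change 0.72, SE 0.27, edgeR adjusted p = 0.306; 0.0944 with the block). Os03g0320000 had 68.7, 19.0 and 111 CPM in the upper and 8.34, 11.6 and 40.8 CPM in the lower libraries, which overlapped (log2 fold change 1.71, SE 0.78, edgeR adjusted p = 0.384; 0.0710 with the block).

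The comparison of nuclei with whole cells asked which aquaporin loci take a different part of the polyA RNA in sorted nuclei. Of 27 loci tested, 6 were called higher in nuclei (22.2%, against 14.1% of all 31858 genes) and 2 lower (7.41%, against 8.76%). The loci called higher were 1 PIP2, 2 TIP and 3 NIP loci, and both loci called lower were TIPs. Of the 3 NIP loci, Os01g0202800 passed the filter on low counts through its nuclei libraries, which favours its call. It enters the 22.2% and the NIP medians given here. The count of lower loci changed with single libraries, as did the share of all genes called lower. It was 1 without upper replicate 1, upper replicate 3 or nuclei replicate 2, against 6.03%, 5.91% and 6.37% of all genes, and 4 without lower replicate 1, against 10.0%. It was 0 by edgeR without nuclei replicate 1, against 1.26%, with 1 at an unadjusted p under 0.05. DESeq2 called 6 higher and 5 lower, against 16.4% and 13.9% of all genes. None of the 3 PIP1 or 2 SIP loci was called by edgeR without a replicate block, with 1 PIP1 locus higher and no SIP locus at an unadjusted p under 0.05. DESeq2 called no locus of either list. The median log2 fold change was 0.53 over the 27 loci, against -0.03 over all genes tested. Its sign rested on nuclei replicate 2: without that library the median was -0.33 over the 29 loci then tested, with 12 above and 17 below 0, against -0.20 over all genes. With all libraries the median was 1.87 over the 7 NIPs, 0.18 over the 10 TIPs, 0.31 over the 5 PIP2, 1.08 over the 3 PIP1 and -0.70 over the 2 SIP loci, and setting the locus without nuclei counts to its bound changed none of these medians. The NIP median of 1.87 was the value of Os08g0152100, which had 25 and 3 counts in nuclei and at most 0.549 CPM in whole cells. Without nuclei replicate 2 the medians were 1.86 for NIP, -0.86 for TIP, -1.58 for PIP2 (7 loci then tested), -0.0040 for PIP1 and -1.32 for SIP loci. Without nuclei replicate 1 they were 1.64 for NIP, 0.26 for TIP, 0.16 for PIP2, 1.51 for PIP1 and -0.29 for SIP loci.

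**Figure D4:**
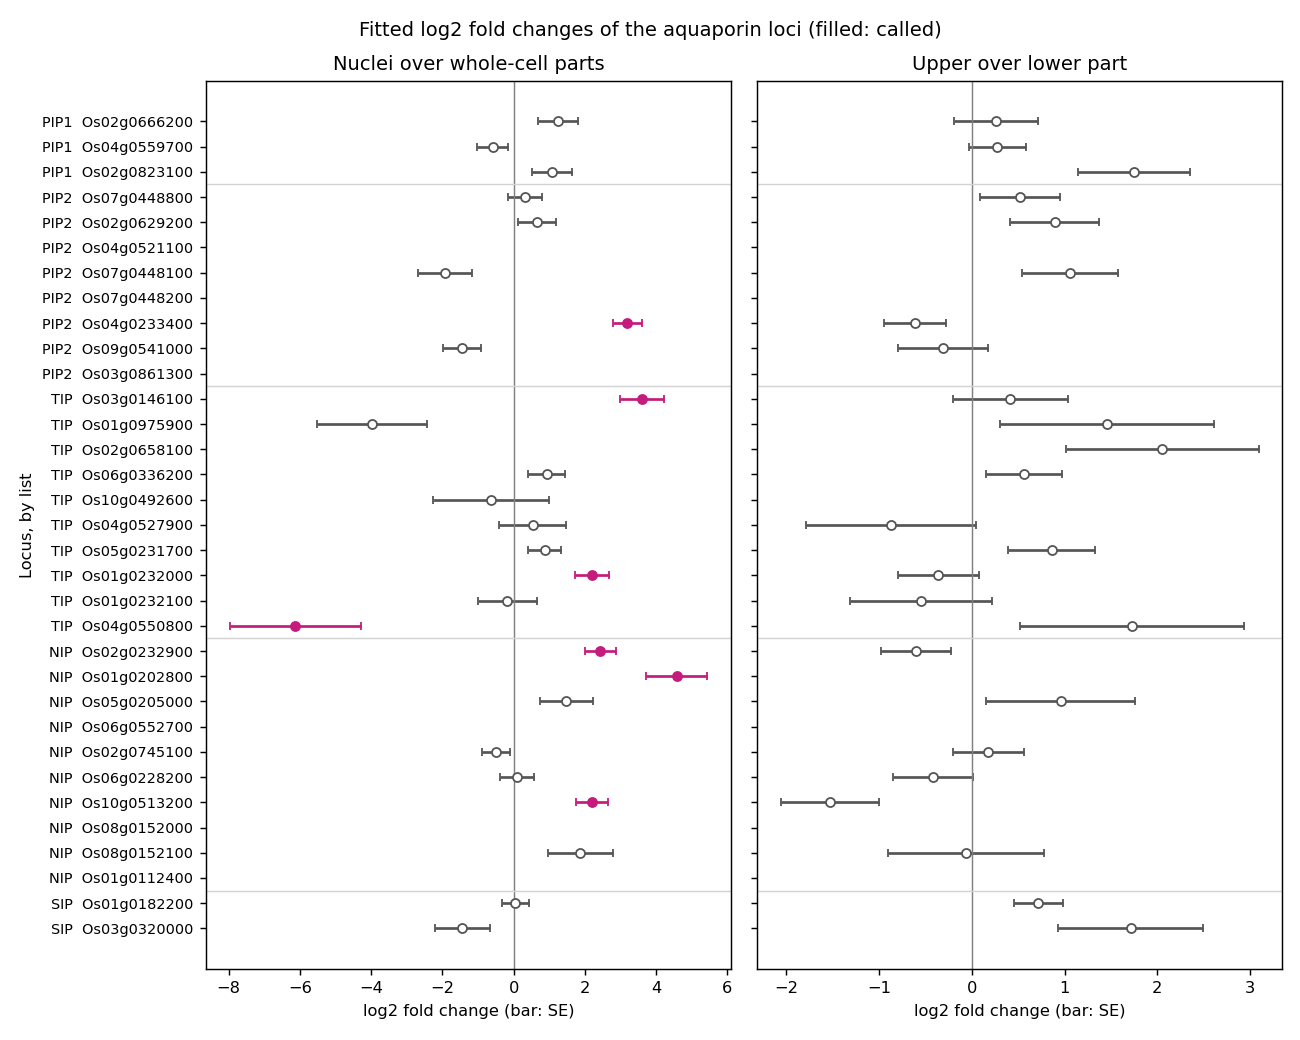
Fitted log2 fold change (point) with its standard error (bar) for each tested aquaporin locus, nuclei over whole-cell parts on the left and upper over lower part on the right, with different horizontal scales; filled points were called. The left panel has 6 filled points above 0 and 1 below, Os02g0658100 is not drawn there because it had 0 counts in nuclei, and the right panel has no filled point.

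The PIP2 locus Os04g0233400 had 215 and 465 CPM in nuclei, 29.6, 39.2 and 20.9 CPM in the upper and 47.5, 58.1 and 33.6 CPM in the lower libraries. Nuclei were far above every whole-cell library, with a log2 fold change of 3.19 with an SE of 0.40 (edgeR adjusted p = 0.000847). The other tested PIP2 loci did not share this. Os07g0448800 and Os02g0629200 had log2 fold changes of 0.31 (SE 0.47) and 0.66 (SE 0.53). Os07g0448100 had 0.728 and 4.64 CPM in nuclei and 10.7 ± 5.09 CPM in whole cells (SD, n = 6), a log2 fold change of -1.92 with an SE of 0.76 (edgeR adjusted p = 0.0928). It was called lower with DESeq2 (adjusted p = 0.0285), and by edgeR without lower replicate 1 (adjusted p = 0.0394) and without nuclei replicate 2 (log2 fold change -3.78, adjusted p = 0.0323). Os09g0541000 had 4.46 and 5.27 CPM in nuclei and 13.3 ± 5.46 CPM in whole cells (SD, n = 6; log2 fold change -1.45, SE 0.54, edgeR adjusted p = 0.0766). DESeq2 called it lower (adjusted p = 0.0356). Its nuclei values lay just under the lowest whole-cell value, 5.73 CPM.

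The TIPs were called in both directions. Os03g0146100 had 601 and 1698 CPM in nuclei, 47.5, 199 and 79.6 CPM in the upper and 59.6, 138 and 50.5 CPM in the lower libraries. Its log2 fold change was 3.60 with an SE of 0.63 (edgeR adjusted p = 0.00421), and it was 2.66 without nuclei replicate 2, where the call held (edgeR adjusted p = 0.0356, the highest over all alternatives, down to 3.49e-07 with DESeq2). Os01g0232000 had 23.5 and 79.8 CPM in nuclei, 8.80, 14.5 and 6.32 CPM in the upper and 14.3, 7.92 and 16.4 CPM in the lower libraries (log2 fold change 2.19, SE 0.47, edgeR adjusted p = 0.0110). Without nuclei replicate 2 the call was lost, at a log2 fold change of 1.04 (edgeR adjusted p = 0.196, the highest over all alternatives, down to 0.000768 with DESeq2).

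Of the same TIP trio, 2 loci had at most 4 counts in either nuclei library. Os02g0658100 had 0 counts in each nuclei library, a level of up to 0.273 and 0.377 CPM, and 1653 counts in the whole-cell libraries. Against the pooled whole-cell counts it was at least 63.6-fold lower in nuclei, with a floor of 3 counts over the nuclei group (edgeR adjusted p = 0.0175). The bound was 97.6-fold against the upper part and only 28.2-fold against the lower part. Lower replicate 1 had 0.485 CPM, close to the limits in nuclei. The call was lost without nuclei replicate 1 or 2 (edgeR adjusted p = 0.132 and 0.0746; DESeq2 gave the lowest of all alternatives, 7.71e-06), where the bounds were 29.3-fold and 34.3-fold. Os04g0550800 had 0 and 4 counts in nuclei against 2897 in whole cells, a ratio of pooled counts 83.7-fold lower in nuclei (95% counting interval from 32.6 to 307; log2 fold change -6.13, SE 1.85, edgeR adjusted p = 0.0389). This ratio was 123-fold against the upper part and 42.5-fold against the lower part.

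The call of Os04g0550800 was lost without upper replicate 1, upper replicate 3, nuclei replicate 1 or nuclei replicate 2 (edgeR adjusted p = 0.0572, 0.0542, 0.240 and 0.0954), and against the lower part alone (edgeR adjusted p = 0.0793). With DESeq2 the adjusted p was 0.00228, the lowest over all alternatives. The pooled ratio was 38.5-fold without nuclei replicate 1, and the bound was 60.2-fold without nuclei replicate 2. Os01g0975900 had 0.637 and 11.9 CPM in nuclei and between 3.33 and 249 CPM in whole cells, so the groups overlapped. Its log2 fold change was -3.99 with an SE of 1.54 (edgeR adjusted p = 0.0859), and it was -3.05 without nuclei replicate 1 and -7.27 without nuclei replicate 2. Without lower replicate 1 it was called lower in nuclei (log2 fold change -4.41, edgeR adjusted p = 0.0264; from 0.0234 with DESeq2 to 0.341 over all alternatives). The summed stamen and lodicule markers had 248 CPM in nuclei replicate 1, below every whole-cell library, and 496 CPM in nuclei replicate 2, above lower replicates 1 and 2. Of these markers, Os05g0423400 had 97.1 and 104 CPM in nuclei, above all lower libraries. Their part in these differences was not tested.

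**Figure D5:**
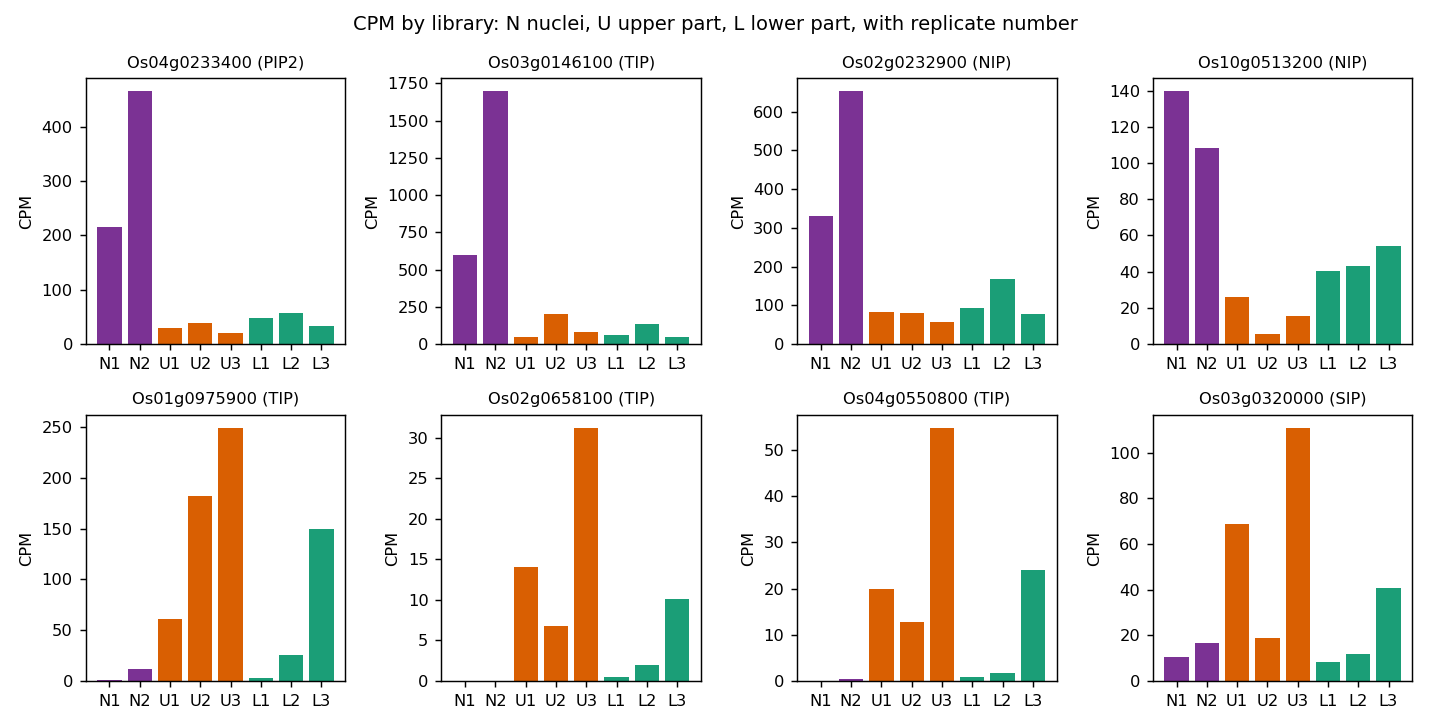
CPM (TMM-scaled, each axis from 0 with its own scale) of 8 aquaporin loci in every library, ordered nuclei (N), upper (U) and lower (L). In the top row both nuclei bars exceed all whole-cell bars. In the bottom row nuclei are at or near 0 for Os02g0658100 and Os04g0550800, while Os01g0975900 has 0.637 and 11.9 CPM in nuclei and overlaps its lower libraries. In each TIP locus of that row lower replicate 3 is far above lower replicates 1 and 2.

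The NIPs had 3 loci higher in nuclei. Os02g0232900 had 331 and 653 CPM in nuclei, 81.9, 80.8 and 57.7 CPM in the upper and 93.5, 168 and 77.4 CPM in the lower libraries (log2 fold change 2.43, SE 0.43, edgeR adjusted p = 0.00457). Os10g0513200 had 140 and 108 CPM in nuclei, 26.1, 5.38 and 15.8 CPM in the upper and 40.4, 43.0 and 54.5 CPM in the lower libraries (log2 fold change 2.20, SE 0.45, edgeR adjusted p = 0.00903). The groups of this locus formed the order nuclei, lower part, upper part, with no overlap between neighbours. Its call was lost without nuclei replicate 1 (log2 fold change 2.00, edgeR adjusted p = 0.0835) and against the lower part alone (log2 fold change 1.43, edgeR adjusted p = 0.0987, the highest over all alternatives, down to 0.000479 with DESeq2). Os01g0202800 had 34 and 24 counts in nuclei (3.09 and 3.01 CPM), 6, 8 and 0 counts in the upper and 4, 2 and 3 counts in the lower libraries.

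Os01g0202800 passed the filter on low counts through its nuclei libraries and was not tested between the parts, so its call (log2 fold change 4.57, SE 0.86, edgeR adjusted p = 0.00621) is favoured by that filter. Without nuclei replicate 1 the call was lost (edgeR adjusted p = 0.0512, the highest over all alternatives, down to 1.88e-05 with DESeq2). The NIP locus Os02g0745100 had 29.8 and 41.5 CPM in nuclei and 50.4 ± 15.5 CPM in whole cells (SD, n = 6; log2 fold change -0.50, SE 0.40, edgeR adjusted p = 0.389). Both nuclei libraries lay above every whole-cell library in 7 of the 27 loci and below in 3, against 17.6% and 17.7% of all genes tested. Os01g0202800 is among the 7, so the filter also favours this count. Another of them, the NIP Os05g0205000, lay above by little, with 2.28 CPM in nuclei replicate 1 against 2.25 CPM in upper replicate 1.

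The PIP1 loci overlapped between nuclei and whole cells. Os02g0666200 had 344 and 1276 CPM in nuclei and 344 ± 97.8 CPM in whole cells (SD, n = 6; log2 fold change 1.24, SE 0.56, edgeR adjusted p = 0.130). Only nuclei replicate 2 lay above all whole-cell libraries. Os02g0823100 had 8.83 and 18.3 CPM in nuclei, within or above its upper values and above its lower values (log2 fold change 1.08, SE 0.55, edgeR adjusted p = 0.179). Among the SIPs, Os01g0182200 had nearly equal means, 44.9 ± 28.6 CPM in nuclei (SD, n = 2) against 44.6 ± 13.7 CPM in whole cells (SD, n = 6). Os03g0320000 had 10.5 and 16.4 CPM in nuclei and between 8.34 and 111 CPM in whole cells (log2 fold change -1.44, SE 0.77, edgeR adjusted p = 0.194).

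The nuclei replicates differed from each other over the family. Of the 24 loci with a mean of at least 1 CPM in nuclei, 19 had their higher value in replicate 2 (79.2%, against 53.0% of all genes of that level). The median log2 ratio was 1.05 for these loci and 0.09 for all such genes, with 0.5 CPM added to each value. Os10g0513200 was an exception, with 140 and 108 CPM in nuclei replicates 1 and 2.

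In 2 pairs of loci with neighbouring identifiers, the ratio of their counts did not overlap between nuclei and whole cells, but neither difference passed the adjustment. On chromosome 1, the TIP Os01g0232000 had 40.4% and 27.1% of the counts of its neighbour Os01g0232100 in nuclei and from 2.78% to 23.9% in whole cells. Both nuclei libraries were above all whole-cell libraries, by 2.31 in the mean log2 ratio (exact permutation, two-sided, p = 0.0357, the smallest of 28 splits; adjusted p = 0.0714 over 4 ratio tests chosen after the data were seen). Os01g0232100 itself had 58.2 and 295 CPM in nuclei, 317, 60.5 and 114 CPM in the upper and 242, 80.6 and 405 CPM in the lower libraries. Libraries with high and low values occurred in each group of this locus. On chromosome 7, the PIP2 Os07g0448100 had 0.636% and 1.91% of the counts of Os07g0448800 in nuclei and from 3.36% to 9.88% in whole cells, a log2 difference of -2.60 (exact permutation p = 0.0357, adjusted p = 0.0714). Between the parts both ratios overlapped, with log2 differences of 0.22 on chromosome 1 (exact permutation p = 0.9, adjusted p = 0.9) and 0.73 on chromosome 7 (exact permutation p = 0.2, adjusted p = 0.267), and both chromosome 7 loci were higher in the upper member of all 3 replicate pairs. The ratio of the NIP neighbours Os08g0152000 and Os08g0152100 was not examined. Os07g0448200, whose identifier lies between Os07g0448100 and Os07g0448800, was the locus with reads in upper libraries alone. The sources used here do not give how reads matching several of these loci were counted.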

How the data were processed

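PolyA RNA of dissected pistils was sequenced. Per the labels' protocols, whole-cell libraries were made with a strand-specific kit and nuclei, purified by fluorescence-activated sorting, with a SMART-Seq kit. The authors deposited 1 table of raw counts per gene and library, without normalization. The submitters' processing notes name STAR, featureCounts, DESeq2 and genome build IRGSP-1.0, without versions. Column names gave the sample of all 8 columns, and 0 were left unused. No 2 libraries were alike, with unequal counts in at least 85.4% of features.

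The whole table was fitted with edgeR 4.0.16 in R 4.3.3 (quasi-likelihood test, TMM scaling, edgeR's filter on low counts), with Benjamini-Hochberg adjustment over all genes tested. The fit of upper against lower libraries held those 6. The fit of nuclei held all 8, with the average of both parts' log2 values as the whole-cell level. CPM of single loci used TMM-scaled library sizes over all 8 libraries, and sums used total counts. Sums, shares and ratios were compared by exact permutation over libraries. Alternatives were DESeq2 1.42.0, other scalings, no filter, a replicate block, other references and libraries left out. The fits were tested on simulated counts. Intervals and floors cover counting error only.

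Statistics of the fit were given for the 12 loci called in either comparison, with or without the block, at least in the comparison of the call. The others are given by level, count, range or fold change. Those with an SE or p among them were chosen after their values were seen, as were the ratios of neighbouring loci and the permutation of shares within pairs. The members, lists and tests were chosen with earlier results of these data known. Replicate numbers come from the labels. The correlations of deviations from the group means across genes were 0.332, 0.635 and 0.627 for upper and lower replicates 1, 2 and 3, each over 0.1, so the numbers were taken as pairs.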

Additional observations from a re-analysis of the deposited data

How the results depend on the processing

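Over all alternatives, the 6 loci called higher in nuclei stayed positive, and Os04g0233400, Os03g0146100 and Os02g0232900 were called in all 15. The number of loci lower in nuclei was 5 with DESeq2, 1 against the lower part alone, and from 0 to 4 with a library left out. With the replicate block 7 loci were called higher and 5 lower in nuclei, against 16.0% and 13.8% of all genes. The loci called beyond those of the fit without the block were the PIP1 Os02g0823100, higher (log2 fold change 1.42, edgeR adjusted p = 0.0305), and Os07g0448100, Os09g0541000 and Os01g0975900, lower (edgeR adjusted p = 0.0275, 0.0346 and 0.0262). Nuclei share their numbers with the parts in only 2 pairs, and the log2 ratio of replicate 1 to 2 in nuclei correlated across genes at 0.0920 with that in the upper and 0.401 with that in the lower part, so these numbers were not taken as pairs. Between the parts, the loci called higher numbered 1 with the replicate block, 4 with the block and without pair 1 or pair 3, and from 0 to 1 with a library left out, and 1 was called lower with the block and without pair 1. For the number called lower between the parts, no other alternative gave more than 0.

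The log2 difference of the PIP1 sums between the parts turned to 0.26 with TMM-scaled library sizes, and ran from -0.31 to 0.15 with a library left out. Likewise, with a library left out, the family sum ran from -0.047 to 0.19 and the TIP sum from -0.014 to 0.41 between the parts. The PIP1 and TIP shares ran from -4.33 to 1.06 and from -0.94 to 5.69 percentage points. Nuclei against whole cells gave, with a library left out, 0.40 to 1.55 for the family sum, -0.17 to 1.44 for PIP1, 0.41 to 1.39 for PIP2, 0.43 to 1.72 for TIP and 1.53 to 1.96 for NIP. With 1 nuclei library no exact p under 0.143 is possible. The PIP2 sum gave 1.03 with TMM scaling. Between the parts, the log2 fold change of Os01g0232000 turned to 0.059 with the block and without pair 3. With a library left out, that of Os03g0146100 ran from -0.37 to 0.96 and that of Os09g0541000 from -1.02 to 0.018, and edgeR called none of these 3 there. Within replicate pairs, exact permutation of the sums between the parts cannot go below p = 0.25, reached by the NIP and SIP sums. With library size alone, all genes had a median log2 fold change of -0.34 between the parts and -0.17 for nuclei. Over all genes, the parts differed in 242 higher and 1 lower by edgeR, 1221 and 411 by DESeq2 and 1529 and 902 with the replicate block, and from 0 to 916 higher with a library left out. Nuclei differed in 4502 and 2791 by edgeR, 5224 and 4429 by DESeq2, 3230 and 1719 against the lower part alone, and from 408 to 3191 lower with a library left out. The cause of these changes was not tested. Nuclei depth limits values under 0.377 CPM.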
